A study of Mus musculus with 19 samples.

Results

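The 8 genes described here encode the transcription factors that switch on fat and sterol synthesis in the liver, together with the membrane proteins that hold one family of them in check. They are Srebf1, Srebf2, Mlxipl, Mlx, Nr1h3, Scap, Insig1 and Insig2. They were taken by name from a table of read counts for 24421 gene symbols, and all 8 of 8 had enough reads to be among the 13293 genes tested. The measurements come from liver RNA of mice given an antisense oligonucleotide (ASO) against Plin5, the gene of the lipid droplet protein perilipin 5, or a control ASO. All animals ate a purified normal diet, received 2 injections a week for 3 weeks and were fasted overnight, and the re-fed groups then had food for 4 hours before the liver was taken. There were 4 libraries of fasted control ASO liver and 5 each of fasted PLIN5 ASO, re-fed control ASO and re-fed PLIN5 ASO liver. The controls therefore carried an ASO too, 1 ASO against Plin5 was used as far as the labels say, and the labels give neither strain, sex, age nor time of day. They also do not say that each library is a separate animal, so p-values measure the spread between these libraries. In whole liver, fewer cells of a type and less RNA per cell cannot be told apart.

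The proteins of Srebf1 and Srebf2, the sterol regulatory element-binding proteins (SREBPs), are made as precursors in the endoplasmic reticulum membrane. Scap escorts them to the Golgi, where proteases release the active factor, and Insig1 and Insig2 hold Scap back when sterols are plentiful. SREBP-1c mainly drives fatty acid synthesis and responds to insulin and to the liver X receptor (LXR), whose alpha form Nr1h3 encodes, while SREBP-2 mainly drives cholesterol synthesis and uptake. Mlxipl encodes ChREBP, a factor that responds to glucose metabolites and binds DNA together with its partner Mlx. Insig1 is itself an SREBP target, whereas the Insig2 gene has a liver transcript that falls with insulin. Much of this control acts on protein cleavage and location, which RNA counts do not measure. Counts per gene also do not separate SREBP-1a from SREBP-1c, nor the transcripts of Mlxipl or of Insig2 from each other.

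In units of 1e+06 counts, the libraries held 24.9 to 66.9 each, with the deepest among re-fed PLIN5 ASO liver. Levels are CPM, counts per 1e+06 counts of the TMM-scaled library, unless FPKM, which also divides by gene length, is named. All 10 hepatocyte markers, Alb and Hnf4a among them, were detected in every library. Plin5 lay at 27.3 to 51.8 CPM in the 9 control ASO libraries and at 3.91 to 13.1 CPM in the 10 PLIN5 ASO libraries, with no overlap. It fell by 2.01 on the log2 scale in fasted liver (edgeR quasi-likelihood test, adjusted p = 0.00257) and by 2.28 in re-fed liver (adjusted p = 0.00119). Replicates 3 and 4 of fasted control ASO were the closest of the 36 pairs of replicates. Their chi-square statistic divided by its degrees of freedom was 3.25, and that of the next closest pair was 19.7. They differed by more than counting noise and were kept as 2 samples. In 4 libraries the clock gene Arntl lay above 10 CPM, at 14.6 to 45.0, against 0.566 to 4.87 in the other 15. They were replicates 3 and 5 of fasted PLIN5 ASO and replicates 3 and 5 of re-fed control ASO. Dbp, a clock output gene, was low in the same 4, at 1.82 to 18.9 CPM against 36.3 to 160 elsewhere. Results are given with and without these libraries where that changed a call or a direction.

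Promoter sequence is shown for the genes whose RNA moved with feeding, and for Insig2, because the factors act on each other's genes through short DNA elements. RefSeq, on GRCm38.p6, held 15 windows of 250 bases before a transcription start for the 8 genes. The sequences below read 5′ to 3′ on the gene's strand and leave out bases that lie in an annotated exon. Capitals mark the SREBP element TCACNCCA, the E-box CACGTG, a looser form of the LXR element DR4 (a direct repeat with a spacer) and the NF-Y box CCAAT, searched on both strands.

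Srebf1 (start 3, chr11:60210472-60210721, minus strand): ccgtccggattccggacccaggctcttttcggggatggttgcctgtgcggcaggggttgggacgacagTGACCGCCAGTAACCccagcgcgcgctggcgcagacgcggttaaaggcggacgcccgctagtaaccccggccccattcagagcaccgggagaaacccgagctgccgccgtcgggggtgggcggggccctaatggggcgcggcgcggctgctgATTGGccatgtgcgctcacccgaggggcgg

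Srebf2 (chr15:82147019-82147180, plus strand): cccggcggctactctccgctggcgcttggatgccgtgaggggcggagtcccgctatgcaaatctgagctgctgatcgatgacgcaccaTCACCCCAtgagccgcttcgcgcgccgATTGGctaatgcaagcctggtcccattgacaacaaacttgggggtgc

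Mlxipl (start 2, chr5:135089640-135089889, plus strand): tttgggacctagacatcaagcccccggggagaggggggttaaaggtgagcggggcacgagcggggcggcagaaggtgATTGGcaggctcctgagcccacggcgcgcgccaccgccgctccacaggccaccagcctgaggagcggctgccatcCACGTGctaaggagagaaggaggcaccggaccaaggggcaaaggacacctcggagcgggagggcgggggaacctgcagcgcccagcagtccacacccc

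Mlx (chr11:101087040-101087276, plus strand): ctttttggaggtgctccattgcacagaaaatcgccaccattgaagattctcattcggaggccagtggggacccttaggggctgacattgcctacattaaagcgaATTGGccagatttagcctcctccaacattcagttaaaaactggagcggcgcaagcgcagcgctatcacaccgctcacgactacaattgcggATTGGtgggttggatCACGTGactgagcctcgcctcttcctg

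Insig1 (chr5:28071162-28071362, plus strand): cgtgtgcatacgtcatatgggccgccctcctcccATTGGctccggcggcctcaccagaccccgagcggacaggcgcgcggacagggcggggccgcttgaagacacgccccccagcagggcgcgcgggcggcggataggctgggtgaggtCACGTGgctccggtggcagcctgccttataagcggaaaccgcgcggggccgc

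Insig2 (start 1, chr1:121332590-121332839, minus strand): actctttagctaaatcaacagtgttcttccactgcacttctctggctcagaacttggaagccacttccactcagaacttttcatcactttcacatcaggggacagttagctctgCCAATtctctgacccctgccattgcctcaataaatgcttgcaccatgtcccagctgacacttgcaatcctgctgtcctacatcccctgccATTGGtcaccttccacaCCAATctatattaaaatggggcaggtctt

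The looser DR4 element stood only in the window of Srebf1 start 3 among the 15, from 182 to 168 bases before the start, and in 0.0457% of 32851 promoter windows of the same length. Its letters were chosen after the Srebf1 sequence had been read, and the strict DR4 element had no match in the 15 windows, against 0.0152% of all. The SREBP element was found in Srebf2, as TCACCCCA from 162 to 155 bases before the start, and in the window of Mlxipl start 1, and in 3.67% of all windows. The E-box CACGTG, which ChREBP-Mlx, USF and clock factors can bind, was found in 1 window each of Mlxipl, Mlx, Insig1 and Scap, and in 6.02% of all. In Mlx it lay 40 to 35 bases and in Insig1 101 to 96 bases before the start. NF-Y boxes were found in 7 of the 15 windows and in 33.8% of all windows, and the GC box GGGCGG in 8 of the 15 and in 32.7% of all. The ROR/REV-ERB element TAGGTCA (2.23% of all windows) and the D-box TTATGTAA (0.819%), 2 elements of the clock, had no match in the 15 windows. These matches describe letters and not bound sites.

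Re-feeding was accompanied by higher RNA of SREBP-1, ChREBP and Insig1 under both ASOs. Under control ASO, 4 of the 8 genes rose from fasted to re-fed liver (Srebf1, Srebf2, Mlxipl and Insig1) and none fell, where 13.2% of all genes tested were called in either direction, 6.42% higher and 6.82% lower. Under PLIN5 ASO, 4 of 8 rose (Srebf1, Mlxipl, Mlx and Insig1) and none fell, against 8.64% of all genes called, 4.5% higher and 4.14% lower. The PLIN5 ASO calls of Mlxipl and Insig1 were less firm. Each was lost without the 4 high-Arntl libraries, with limma on unfiltered FPKM and in 8 of 19 runs with 1 library left out. The median log2 difference of the 8 genes was 0.56 under control ASO and 0.33 under PLIN5 ASO, beside 0.03 and 0.00 over all genes. Between the ASOs, 0 of 8 passed edgeR's test in fasted liver, where 1.17% of all genes did, and 0 of 8 in re-fed liver, where 1.38% did. At an unadjusted p under 0.05, 4 of 8 stood apart between the ASOs in fasted liver (Srebf1, Srebf2, Mlxipl, Mlx), where 15.1% of all genes did, and 3 of 8 in re-fed liver (Mlxipl, Insig1, Nr1h3), where 19% did. DESeq2 called 0 of 8 in fasted liver and 2 of 8, Mlxipl and Insig1, in re-fed liver. Of 24421 gene symbols it called 434 in fasted and 607 in re-fed liver, where edgeR called 156 and 183. The difference in feeding response between the ASOs, the interaction, passed for 0 of 8 with edgeR, where 0.0226% of all genes did. It also passed for 0 of 8 with DESeq2, where 96 of 24421 gene symbols did. With edgeR, 3 of 8 (Srebf2, Mlx, Insig1) had an unadjusted p under 0.05, as did 15% of all genes.

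**Figure D1:**
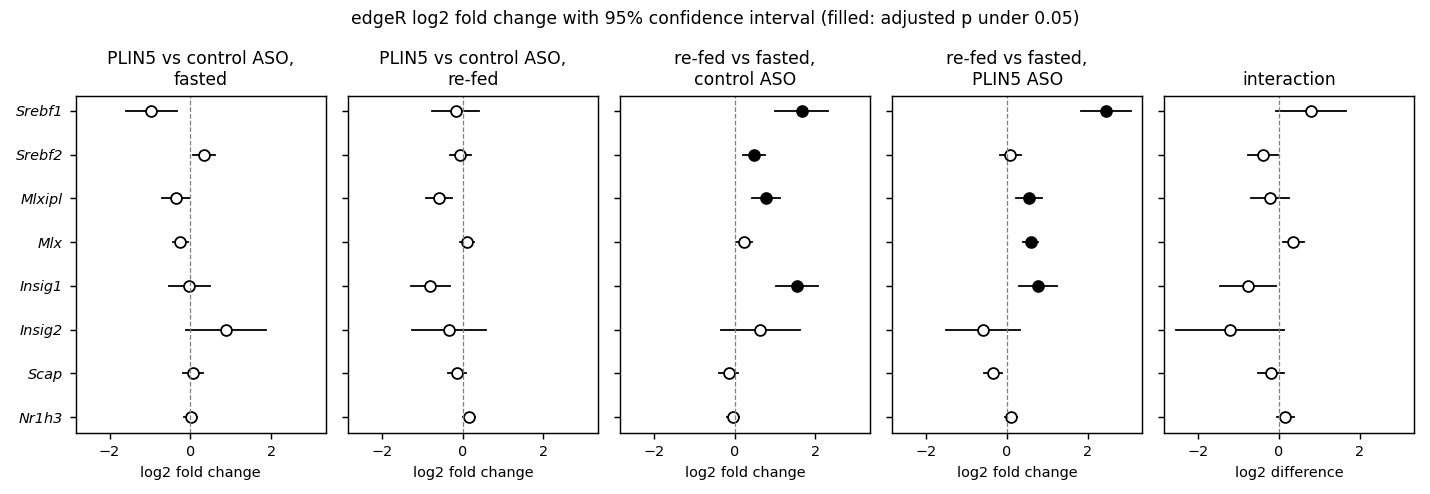
edgeR log2 fold change (horizontal axis) of each of the 8 genes with its 95% confidence interval in the 5 comparisons, filled where the adjusted p was under 0.05. Filled points stand only in the re-feeding panels, 4 in each, and the intervals of Insig2 are the widest in every panel.

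Srebf1, on chromosome 11 (60199089 to 60222581, minus strand, GRCm38), encodes SREBP-1, and its RNA rose with food under both ASOs. Fasted control ASO libraries held 178, 289, 280 and 207 CPM (replicates 1, 3, 4 and 5), and fasted PLIN5 ASO libraries held 157, 187, 71.9, 120 and 74.1 CPM (replicates 1 to 5). Re-fed control ASO libraries held 757, 821, 695, 1114 and 376 CPM, and re-fed PLIN5 ASO libraries held 399, 817, 796, 684 and 644 CPM. Every re-fed library was above every fasted one, while the ASO groups overlapped in both feeding states. Groups without overlap between re-fed and fasted liver were seen for 3 of the 8 genes under each ASO, beside 16.3% of all genes under control ASO and 7.57% under PLIN5 ASO. Srebf1 RNA was 3.16 times as high after re-feeding under control ASO (log2 1.66, SE 0.31, edgeR adjusted p = 0.0019). Under PLIN5 ASO it was 5.47 times as high (log2 2.45, SE 0.30, adjusted p = 5.15e-05). The responses differed by a log2 value of 0.79 with an interval from -0.06 to 1.65 (edgeR interaction, adjusted p = 0.367), and by 0.20 (adjusted p = 0.875) without the 4 libraries of high Arntl.

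In fasted liver 4 of 5 PLIN5 ASO libraries lay below all control ASO libraries for Srebf1. The log2 difference was -0.96 with an interval from -1.59 to -0.34, and the edgeR adjusted p was 0.119. Both high-Arntl libraries were the lowest of that group, at 71.9 and 74.1 CPM. Without the 4 such libraries the difference was -0.62 (adjusted p = 0.243). Over all alternatives with 1 library left out it ran from -1.17 to -0.82, with adjusted p from 0.0583 to 0.273. Marker sums of other cell types were also set side by side in fasted liver, without a test of the sums. The 12 Kupffer cell and macrophage markers summed to 187 to 480 CPM under PLIN5 ASO against 165 to 193 in fasted control ASO liver, with overlap. Of the 12, 2 were called higher, where 80 of all 13293 genes tested were. The highest Kupffer cell and macrophage sums, 480 and 340 CPM, were those of the high-Arntl replicates 3 and 5. The 10 stellate cell and fibroblast markers summed to 174 to 269 against 135 to 172 CPM, with 3 of 10 called higher, and no marker of either list was at 0 in any library. The 11 liver endothelial markers leaned the other way, with 9 negative differences and a median of -0.21. The part of these cell types in the fasted ASO differences was not tested. In re-fed liver the difference between the ASOs was -0.17 with an interval from -0.76 to 0.42.

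Srebf2, on chromosome 15 (82147181 to 82205379, plus strand), was the lowest of the 8 genes per length in every group, at a mean of 5.08 to 7.34 FPKM. It was measured at 22.8, 25.7, 29.0 and 25.3 CPM in fasted control ASO liver and at 29.2, 29.7, 36.3, 30.9 and 35.6 CPM in fasted PLIN5 ASO liver. Re-fed control ASO liver held 29.3, 28.0, 44.7, 31.8 and 45.0 CPM, and re-fed PLIN5 ASO liver held 37.9, 34.9, 32.2, 33.5 and 33.4 CPM. Its 5 fasted PLIN5 ASO libraries all lay above the 4 fasted control ASO libraries, the only such separation between ASOs among the 8 genes in either feeding state, where 7.13% of all genes separated in fasted and 4.22% in re-fed liver. The fasted ASO difference was 0.33 on the log2 scale (SE 0.13, edgeR adjusted p = 0.227). Re-feeding under control ASO gave a rise of 0.48 (SE 0.13, adjusted p = 0.0208), to 1.39 times the fasted level. Replicates 3 and 5 of re-fed control ASO, the high-Arntl pair, were the 2 highest of the group. Without the 4 high-Arntl libraries the value was 0.21 (adjusted p = 0.145), and leaving out any one of replicates 1, 3 or 5 of fasted control ASO or 3 or 5 of re-fed control ASO also ended the call. Over the 19 runs with 1 library left out the value was 0.38 to 0.55 and the adjusted p 0.00803 to 0.0712. The call was also lost with only the 2 groups compared (0.48, adjusted p = 0.0674) and with limma on unfiltered FPKM (0.44, adjusted p = 0.0503). Under PLIN5 ASO the re-feeding difference was 0.09 with an interval from -0.17 to 0.34. Without the 4 high-Arntl libraries it was 0.20 (interval 0.02 to 0.37, edgeR adjusted p = 0.158), near the control ASO value of 0.21. The responses to food differed by -0.39 with an interval from -0.76 to -0.02 (edgeR interaction, unadjusted p = 0.0422, adjusted p = 0.319). Without those libraries they differed by -0.01 (adjusted p = 0.985).

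Mlxipl, on chromosome 5 (135089890 to 135138382, plus strand), encodes ChREBP. Fasted control ASO libraries held 424, 298, 293 and 448 CPM, and fasted PLIN5 ASO libraries a close 269, 295, 277, 282 and 303 CPM. The re-fed control ASO libraries held 635, 510, 599, 561 and 811 CPM, and the re-fed PLIN5 ASO libraries 288, 539, 417, 470 and 368 CPM. All 5 re-fed control ASO libraries were above all fasted control ASO libraries, and 4 of 5 re-fed PLIN5 ASO libraries were above all fasted PLIN5 ASO libraries. Mlxipl rose to 1.70 times the fasted level under control ASO (log2 0.77, SE 0.17, edgeR adjusted p = 0.00531) and to 1.46 times under PLIN5 ASO (log2 0.55, SE 0.16, adjusted p = 0.0347). The second call was lost without the 4 high-Arntl libraries, at a log2 value of 0.56 (adjusted p = 0.0685). It was also lost in 8 of the 19 runs that left out 1 library, namely any of fasted PLIN5 ASO or replicates 2, 3 or 4 of re-fed PLIN5 ASO, with log2 values of 0.43 to 0.65 and adjusted p up to 0.109 over the 19 runs.

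In re-fed liver, Mlxipl under PLIN5 ASO stood at 0.668 of its control ASO level. The log2 difference of -0.58 (SE 0.16, interval -0.91 to -0.25) had an edgeR adjusted p of 0.0657, and 4 of 5 PLIN5 ASO libraries lay below all control ASO libraries. DESeq2 called it (log2 -0.58, adjusted p = 0.0132). Limma on log2(FPKM + 1) called it among genes with a mean FPKM of at least 0.5 (-0.61, adjusted p = 0.0474), but not without that filter. Without the high-Arntl libraries it was -0.45 (adjusted p = 0.228). With 1 library left out, edgeR did not call it in any of the 19 runs (-0.69 to -0.47, adjusted p from 0.0561 to 0.182). In fasted liver the difference was -0.36 (adjusted p = 0.307). The feeding response differed between the ASOs by -0.22 with an interval from -0.70 to 0.25.

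Mlx, on chromosome 11 (101087277 to 101092207, plus strand), the DNA-binding partner of ChREBP, held 37.8, 41.2, 41.5 and 32.7 CPM in fasted control ASO liver and 34.3, 34.4, 29.5, 31.8 and 31.2 CPM in fasted PLIN5 ASO liver. Re-fed control ASO libraries held 42.7, 41.9, 53.6, 48.5 and 38.9 CPM, and re-fed PLIN5 ASO libraries 43.9, 52.9, 49.3, 47.6 and 49.4 CPM. Under PLIN5 ASO the re-fed libraries were all above the fasted ones, and under control ASO 4 of 5 were. Mlx rose under PLIN5 ASO by a log2 value of 0.59 (SE 0.09, edgeR adjusted p = 0.000337), to 1.51 times the fasted level. That call held in each of the 19 runs that left out 1 library, at 0.55 to 0.63, and without the 4 high-Arntl libraries, at 0.54 (adjusted p = 0.0018). Under control ASO the value was 0.24 (SE 0.09, adjusted p = 0.0987), and 0.30 (adjusted p = 0.029) after the trend with transcript length was taken out of each library. The difference between these responses was 0.36 with an interval from 0.09 to 0.62 (edgeR interaction, unadjusted p = 0.0116, adjusted p = 0.249). Between ASOs, Mlx differed by -0.25 in fasted (adjusted p = 0.201) and by 0.11 in re-fed liver (adjusted p = 0.533).

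Nr1h3, on chromosome 2 (91184061 to 91202834, minus strand), encodes LXR alpha, the oxysterol-sensing nuclear receptor that acts on the Srebf1 gene. It was the steadiest of the 8 genes. Its lowest, median and highest libraries were 117, 123 and 127 CPM in fasted control ASO liver, and 118, 124 and 127 CPM in fasted PLIN5 ASO liver. Re-fed control ASO liver ran from 104 over 117 to 130 CPM, and re-fed PLIN5 ASO liver from 125 over 129 to 152 CPM. All 4 groups overlapped. The SD of log2 CPM within groups was 0.09, and 7.97% of 8888 genes of at least 5 CPM had a smaller one. The 5 comparisons gave log2 differences from -0.05 to 0.16. The highest, PLIN5 ASO against control ASO in re-fed liver, had an interval from 0.02 to 0.30 and an edgeR adjusted p of 0.201.

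Scap, on chromosome 9 (110333288 to 110384950, plus strand), encodes the escort protein of the SREBPs. It held 135, 122, 119 and 139 CPM in fasted control ASO liver and 135, 131, 152, 108 and 146 CPM in fasted PLIN5 ASO liver. Re-fed libraries held 122, 95.6, 119, 119 and 126 CPM under control ASO and 114, 82.1, 97.3, 113 and 123 CPM under PLIN5 ASO. Groups overlapped in every comparison. Re-feeding under PLIN5 ASO gave the largest difference, -0.35 on the log2 scale (SE 0.11, interval -0.57 to -0.12), with an edgeR adjusted p of 0.0527. It passed with DESeq2 (-0.35, adjusted p = 0.0233), with RLE size factors (-0.36, adjusted p = 0.0463) and with a filter of 1 CPM in 4 libraries (-0.35, adjusted p = 0.0452). Without the high-Arntl libraries it was -0.24 (adjusted p = 0.255). With 1 library left out it passed in 3 and did not pass in 16 of the 19 runs (-0.42 to -0.27, edgeR adjusted p from 0.0213 to 0.125). Under control ASO the re-feeding difference was -0.15 (adjusted p = 0.429).

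Insig1, on chromosome 5 (28071363 to 28078662, plus strand), encodes the Insig form that is itself raised by SREBP. It held 40.4, 87.2, 90.8 and 68.8 CPM in fasted control ASO liver and 85.2, 77.0, 74.7, 56.5 and 59.6 CPM in fasted PLIN5 ASO liver. Re-fed control ASO libraries held 234, 117, 254, 179 and 265 CPM, and re-fed PLIN5 ASO libraries 118, 93.0, 106, 170 and 119 CPM. Both re-fed groups lay above both fasted groups in every library. The fasted groups overlapped widely, and in re-fed liver 2 of 5 PLIN5 ASO libraries lay below all control ASO libraries. Insig1 rose to 2.92 times the fasted level under control ASO (log2 1.55, SE 0.25, edgeR adjusted p = 0.000537), a call that held without the high-Arntl libraries at 1.30 (adjusted p = 0.00771). Under PLIN5 ASO it rose to 1.72 times (log2 0.78, SE 0.23, adjusted p = 0.0375). This second call was lost without the high-Arntl libraries (0.73, adjusted p = 0.103). It was also lost in 8 of 19 runs that left out 1 library, namely replicates 2, 3, 4 or 5 of fasted PLIN5 ASO or 1, 3, 4 or 5 of re-fed PLIN5 ASO, with 0.63 to 0.85 and adjusted p up to 0.109 over the 19 runs.

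In re-fed liver, Insig1 stood at 0.577 of its control ASO level under PLIN5 ASO. The log2 difference was -0.79 (SE 0.23, interval -1.27 to -0.32) with an edgeR adjusted p of 0.0759. It passed with DESeq2 (-0.80, adjusted p = 0.0168), and with edgeR when replicate 2 of re-fed control ASO or replicate 4 of re-fed PLIN5 ASO was left out, over a range of -0.95 to -0.70 and adjusted p from 0.0365 to 0.191 for the 19 runs. Without the high-Arntl libraries it was -0.55 (adjusted p = 0.305). In fasted liver the ASO difference was -0.02 with an interval from -0.52 to 0.48. The responses to food differed by -0.77 with an interval from -1.46 to -0.08 (edgeR interaction, unadjusted p = 0.0303, adjusted p = 0.289).

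Insig2, on chromosome 1 (121304353 to 121332589, minus strand), encodes the second Insig, and its level was set apart by library more than by group. It held 151, 125, 130 and 121 CPM in fasted control ASO liver and 107, 126, 414, 120 and 456 CPM in fasted PLIN5 ASO liver. Re-fed control ASO libraries held 107, 108, 307, 103 and 403 CPM, and re-fed PLIN5 ASO libraries 178, 204, 88.4, 182 and 166 CPM. The 4 libraries with high Arntl held 307 to 456 CPM, and the other 15 held 88.4 to 204 CPM. No group stood clear of another, and the within-group SD of log2 CPM was 0.77, above that of 98.8% of 8888 genes. The 5 comparisons gave edgeR adjusted p from 0.376 to 0.728. All 5 changed sign without the high-Arntl libraries. The fasted ASO difference went from 0.89 (interval -0.10 to 1.88) to -0.17, and the re-fed one from -0.33 to 0.63 (interval 0.24 to 1.02, adjusted p = 0.125). The re-feeding difference went from 0.64 to -0.32 under control ASO and from -0.58 to 0.47 under PLIN5 ASO. The interaction went from -1.22 to 0.80.

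**Figure D2:**
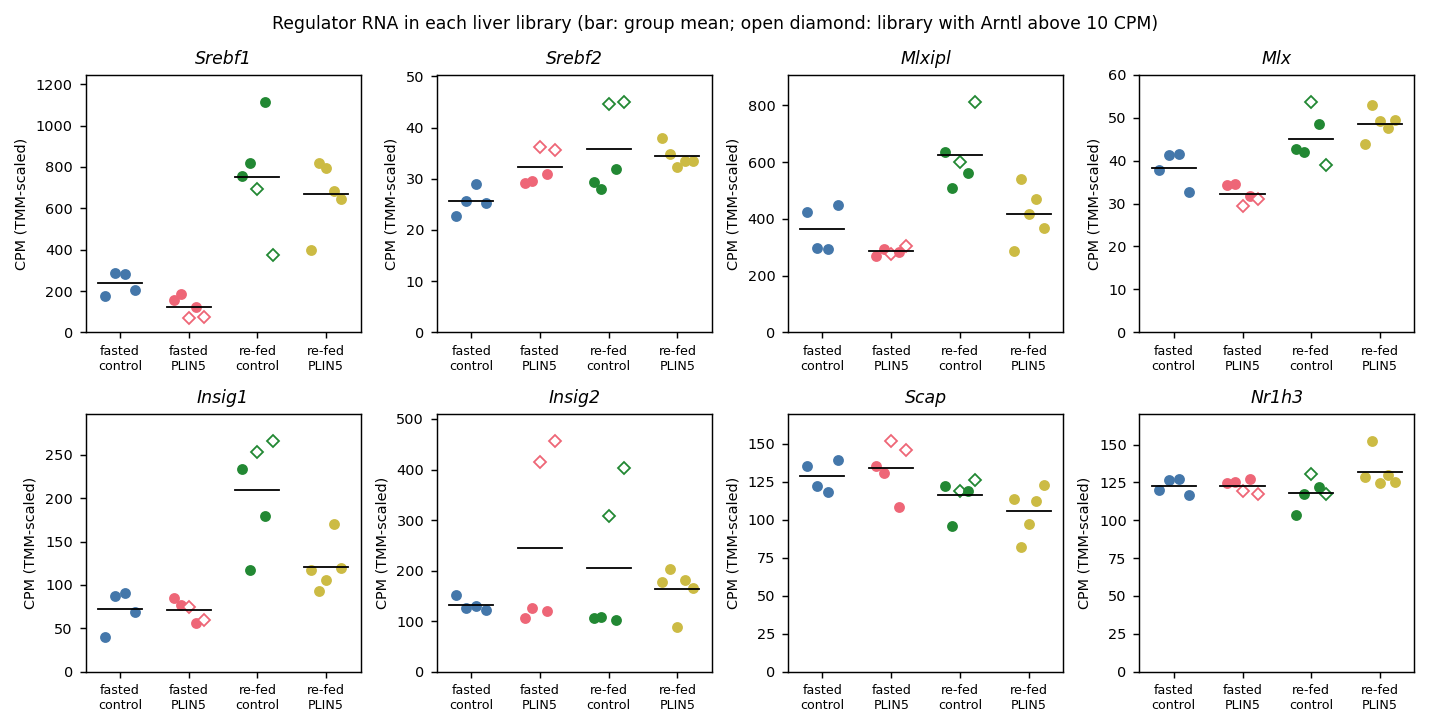
TMM-scaled CPM (vertical axes, from 0) of the 8 genes in each of the 19 libraries by group, with the group mean as a bar and open diamonds for the 4 libraries with Arntl above 10 CPM. Re-fed Srebf1 libraries sit at 376 CPM or higher and fasted ones at 289 or lower, and the 4 diamonds of Insig2 sit at 307 CPM or higher.

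Across the 19 libraries, log2 Insig2 followed log2 Arntl with a Pearson r of 0.90 and a Spearman rho of 0.81, and with r = 0.93 once group means were removed. Its r with Dbp was -0.86. These libraries share groups, and the 4 with high Arntl carry much of the relation. Srebf2 had an r of 0.74 with Arntl, and 0.73 with group means removed. Srebf1 had an r of -0.11 with Arntl, and -0.73 with group means removed, and within fasted PLIN5 ASO and within re-fed control ASO the high-Arntl libraries were the lowest for Srebf1 among their group. Between the 8 genes themselves, with group means removed, Srebf2 and Insig2 had an r of 0.80, Srebf1 and Insig2 -0.77, and Srebf1 and Mlx 0.67. The labels give no sampling time, so its part in these relations was not tested.

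**Figure D3:**
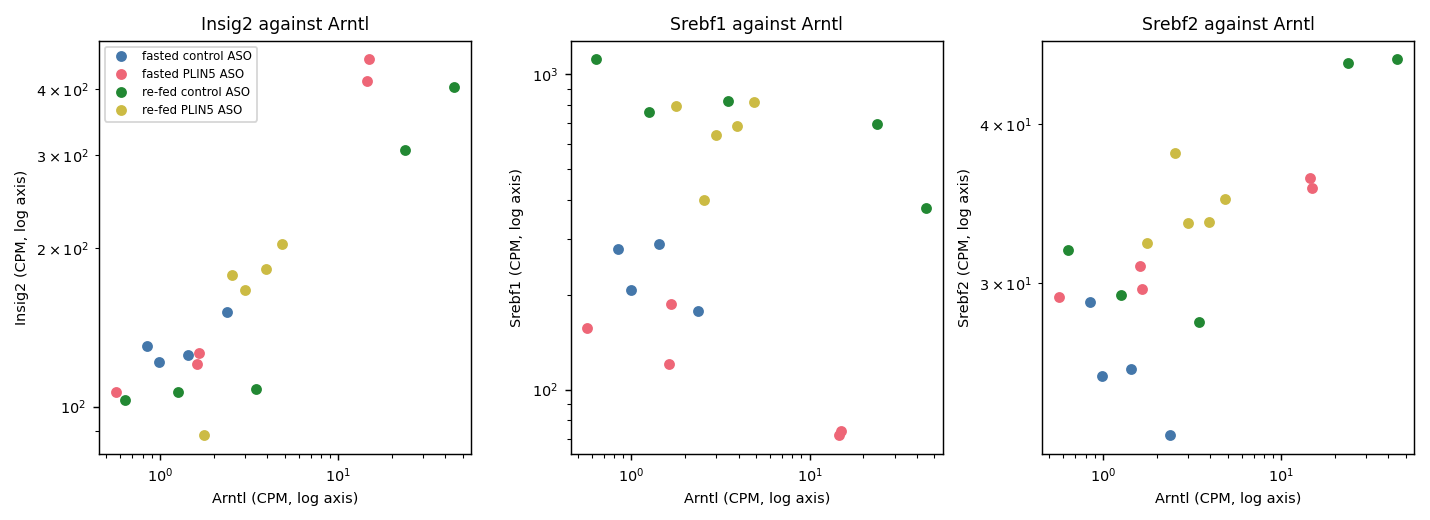
CPM of Insig2, Srebf1 and Srebf2 (vertical, log axes) against CPM of Arntl (horizontal, log axis), 1 point per library coloured by group. The 4 points right of 10 CPM of Arntl are the highest for Insig2, at 307 to 456 CPM, and lie at 71.9, 74.1, 376 and 695 CPM for Srebf1.

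Per length, the order of the 8 genes changed with feeding. By mean FPKM the fasted control ASO liver held most Mlxipl (87.2 ± 19.8, SD, n = 4), then Nr1h3 (64.6 ± 2.58), Insig2 (51.7 ± 5.76) and Srebf1 (50.8 ± 11.7), with Insig2 and Srebf1 overlapping. Lower stood Scap at 29.1, Insig1 at 24.1, Mlx at 21.8 and Srebf2 at 5.08 FPKM, with Scap and Insig1, and Insig1 and Mlx, overlapping. In re-fed control ASO liver Srebf1 led with 162 ± 57.9 FPKM (SD, n = 5), overlapping Mlxipl at 151 ± 28.0, and Insig1 (71.8 ± 20.4) overlapped both Insig2 (82.8 ± 56.4) and Nr1h3 (63.7 ± 4.47). In re-fed PLIN5 ASO liver the means were 142 ± 35.9 FPKM for Srebf1, 99.5 ± 22.2 for Mlxipl and 41.6 ± 10.2 for Insig1 (SD, n = 5), and Insig1 overlapped Insig2 at 65.3 ± 17.5. In fasted PLIN5 ASO liver Srebf1 had 25.9 ± 10.1 FPKM (SD, n = 5) and overlapped Scap and Insig1.

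The ratio of Srebf1 to Srebf2 within a library, in FPKM, was 8.35, 11.99, 10.5 and 8.81 in fasted control ASO liver and 5.81, 6.94, 2.11, 4.07 and 2.22 in fasted PLIN5 ASO liver. These groups did not overlap. Srebf2 alone also separated them, as 7.13% of all single genes tested did. The ratios were not tested, and how many other gene pairs separate in this way was not determined. After re-feeding the ratio of Srebf1 to Srebf2 was 26.7, 30.8, 15.9, 37.3 and 8.94 under control ASO and 10.9, 24.2, 26.2, 21.6 and 19.98 under PLIN5 ASO, with wide overlap. The ratio of Insig2 to Insig1 was 4.37, 1.66, 1.67 and 2.05 in fasted control ASO liver and 1.42, 1.88, 6.42, 2.44 and 9.05 in fasted PLIN5 ASO liver. In re-fed liver it was 0.528, 1.07, 1.44, 0.682 and 1.80 under control ASO and 1.77, 2.54, 0.981, 1.24 and 1.61 under PLIN5 ASO. Insig1 thus exceeded Insig2 per length in some re-fed libraries and in no fasted one. The ratio of Mlxipl to its partner Mlx had group means of 4.11 and 3.75 in fasted liver (control and PLIN5 ASO), and of 5.94 and 3.54 in re-fed liver. In re-fed liver its 5 PLIN5 ASO libraries, at 2.86 to 4.15, lay below the 5 control ASO libraries, at 4.71 to 8.94. The value of 8.94 was that of the high-Arntl replicate 5. EdgeR called neither gene between the ASOs in re-fed liver, where 4.22% of all single genes tested separated. The share of gene pairs that separate by their ratio was not determined here either.

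**Figure D4:**
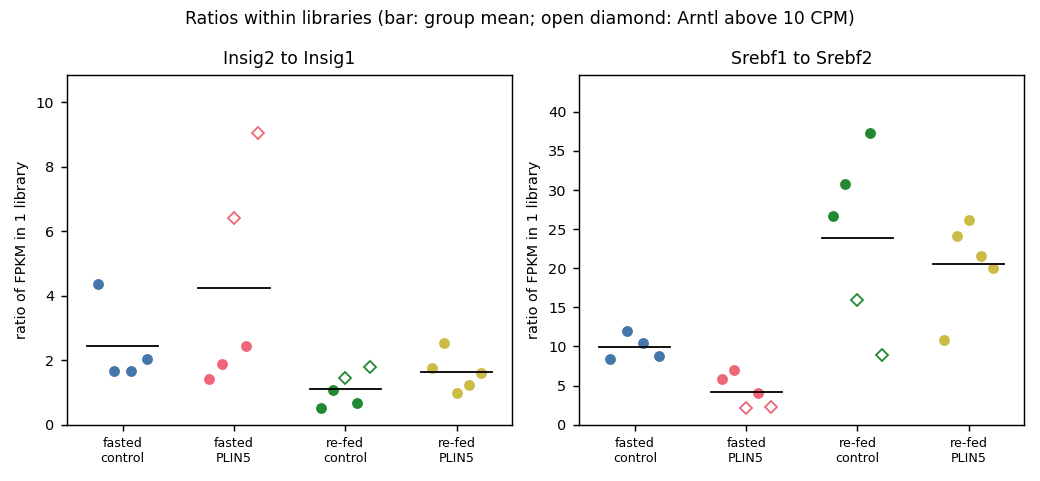
Ratio of FPKM within each library (vertical axes, from 0) for Insig2 to Insig1 and Srebf1 to Srebf2, by group, with the group mean as a bar and open diamonds for the 4 libraries with Arntl above 10 CPM. For Srebf1 to Srebf2 the fasted PLIN5 ASO libraries, at 2.11 to 6.94, all lie below the fasted control ASO libraries, at 8.35 to 11.99. The ratios were not tested.

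The targets of these factors were read from lists of their textbook genes. Of 18 fatty acid synthesis targets of SREBP-1, 15 rose and none fell with re-feeding under control ASO (median log2 1.14, beside 0.03 over all genes), and 13 rose and none fell under PLIN5 ASO (median 1.42). Fasn, fatty acid synthase, rose by 3.66 (SE 0.28) and 3.56 (SE 0.25), and Mid1ip1, an activator of acetyl-CoA carboxylase, by 1.79 (SE 0.17) and 2.82 (SE 0.17). Of 24 cholesterol synthesis and uptake targets of SREBP-2, 20 rose under control ASO (median 1.10) and 11 under PLIN5 ASO (median 0.60), with none falling. Without the 4 high-Arntl libraries those counts were 16 and 11, and 16 and 11 for the 18 fatty acid synthesis genes. Of all genes, 8.78% and 7.89% were then called in either direction. With 1 library left out, 16 to 20 SREBP-2 targets rose under control ASO and 9 to 13 under PLIN5 ASO. For the fatty acid synthesis genes the ranges were 12 to 15 and 12 to 13. Fdps, which makes farnesyl diphosphate, rose by 3.82 (SE 0.44) and 2.18 (SE 0.37). Of 14 carbohydrate-responsive targets of ChREBP, 5 rose under control ASO (median 0.41) and 8 under PLIN5 ASO (median 0.61), with none falling. Without the 4 high-Arntl libraries 1 of these 8 calls was lost (0.44, edgeR adjusted p = 0.0918). With 1 library left out, 4 to 6 rose under control ASO and 6 to 8 under PLIN5 ASO, and 0 to 1 fell under each. Pklr, liver pyruvate kinase, rose by 2.25 (SE 0.33) and 2.63 (SE 0.31). These comparisons share no library, and the differences between their counts were not tested.

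The remaining lists had 0 to 3 genes called each, where 13.2% of all genes were called with control ASO and 8.64% with PLIN5 ASO, so these counts show nothing particular to the lists. Of 13 LXR targets, 1 rose (Abca1, a cholesterol exporter, 0.35) and 1 fell (Apoe, -0.45) with re-feeding under control ASO. Under PLIN5 ASO 0 of 13 were called by edgeR, 2 had an unadjusted p under 0.05, and DESeq2 called 1. Among 13 genes of SREBP transport, cleavage and turnover, Rnf139 rose under control ASO (0.22, SE 0.06). Rnf145, a ubiquitin ligase that acts on Scap, rose under PLIN5 ASO (0.87, SE 0.19). Among 18 dimer partners and promoter cofactors, 3 fell under control ASO, namely Nr1h2 (LXR beta, -0.28), Usf1 (-0.40) and Rxra (-0.30), and 2 fell under PLIN5 ASO, namely Ncor1 (-0.31) and Rxrb (-0.32). Of 14 genes listed as insulin signalling upstream of SREBP-1c, Lpin1 rose under both ASOs, by 2.59 (SE 0.55) and 1.90 (SE 0.49). Insr, the insulin receptor, fell under PLIN5 ASO (-0.29, SE 0.08). Each value here is an edgeR log2 fold change with an adjusted p under 0.05. Several of these smaller differences lay near the threshold, so that their calls changed with the libraries used. Without the 4 high-Arntl libraries the calls of Abca1 (0.31, adjusted p = 0.159), Apoe (-0.36, adjusted p = 0.0979), Rnf139 (0.17, adjusted p = 0.135), Rxra (-0.23, adjusted p = 0.073) and Rxrb (-0.29, adjusted p = 0.0918) were lost. With 1 library left out, Abca1 was lost without any of replicates 3, 4 or 5 of either control ASO group (0.28 to 0.44 over the 19 runs, adjusted p up to 0.143), and Apoe without replicates 1, 3 or 4 of fasted or 1, 3 or 5 of re-fed control ASO (-0.49 to -0.41, up to 0.0756). Rnf139 was lost without fasted replicate 1 or re-fed replicate 5 of control ASO (0.19 to 0.25, up to 0.0738), and Rxra without fasted replicate 5 or re-fed replicates 3 or 5 of control ASO (-0.33 to -0.26, up to 0.070). Under PLIN5 ASO, Rxrb was lost without re-fed replicates 2, 3 or 4 (-0.39 to -0.28, up to 0.0615), Insr without re-fed replicate 4 or fasted replicate 2 (-0.34 to -0.25, up to 0.0594), and Lpin1 without re-fed replicate 3 or fasted replicates 3 or 5 (1.60 to 2.12, up to 0.0571).

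Between the ASOs in fasted liver, 2 genes of the 7 lists passed edgeR's test, where 1.17% of all genes did. Both were lower under PLIN5 ASO. They were 1 of 18 SREBP-1 targets and 1 of 13 genes of SREBP transport, cleavage and turnover. Counts this small show nothing particular to the lists. Mid1ip1 had means of 18.8 ± 3.43 CPM (SD, n = 5) under PLIN5 ASO and 40.3 ± 7.82 CPM (SD, n = 4) under control ASO, a log2 difference of -1.10 (SE 0.17, adjusted p = 0.00294). Rnf145 had 12.5 ± 2.54 and 26.4 ± 3.11 CPM, a difference of -1.08 (SE 0.20, adjusted p = 0.0191). The call of Rnf145 was lost without replicate 4 or 5 of fasted control ASO or replicate 5 of fasted PLIN5 ASO, with an adjusted p up to 0.0673 and differences of -1.17 to -0.99 over the 19 runs. The 24 SREBP-2 targets had a median difference of 0.21 beside 0.01 over all genes, with 0 called by edgeR, 9 higher at an unadjusted p under 0.05 (7.54% of all genes were) and 2 higher by DESeq2. The 18 SREBP-1 targets had a median of -0.14. In re-fed liver edgeR called 0 genes of any of the 7 lists, where 1.38% of all genes were called. The SREBP-1 targets had a median of -0.37 (0 called, 6 lower at an unadjusted p under 0.05, 2 lower by DESeq2), and the SREBP-2 targets of -0.31 (0 called, 5 lower and 2 lower), beside -0.01 over all genes, of which 9.18% were lower at an unadjusted p under 0.05. The ChREBP targets had a median of 0.18, with 0 called by edgeR, at an unadjusted p under 0.05 or by DESeq2. For the interaction edgeR again called 0 genes of the 7 lists, where 0.0226% of all genes were called. There, 13 of 24 SREBP-2 targets had a smaller response under PLIN5 ASO at an unadjusted p under 0.05, as did 7.36% of all genes. DESeq2 called 3, and the median difference was -0.72, and -0.38 without the 4 high-Arntl libraries. Of 24421 gene symbols, DESeq2 called 214 higher in fasted liver, 272 lower in re-fed liver and 49 lower for the interaction.

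**Figure D5:**
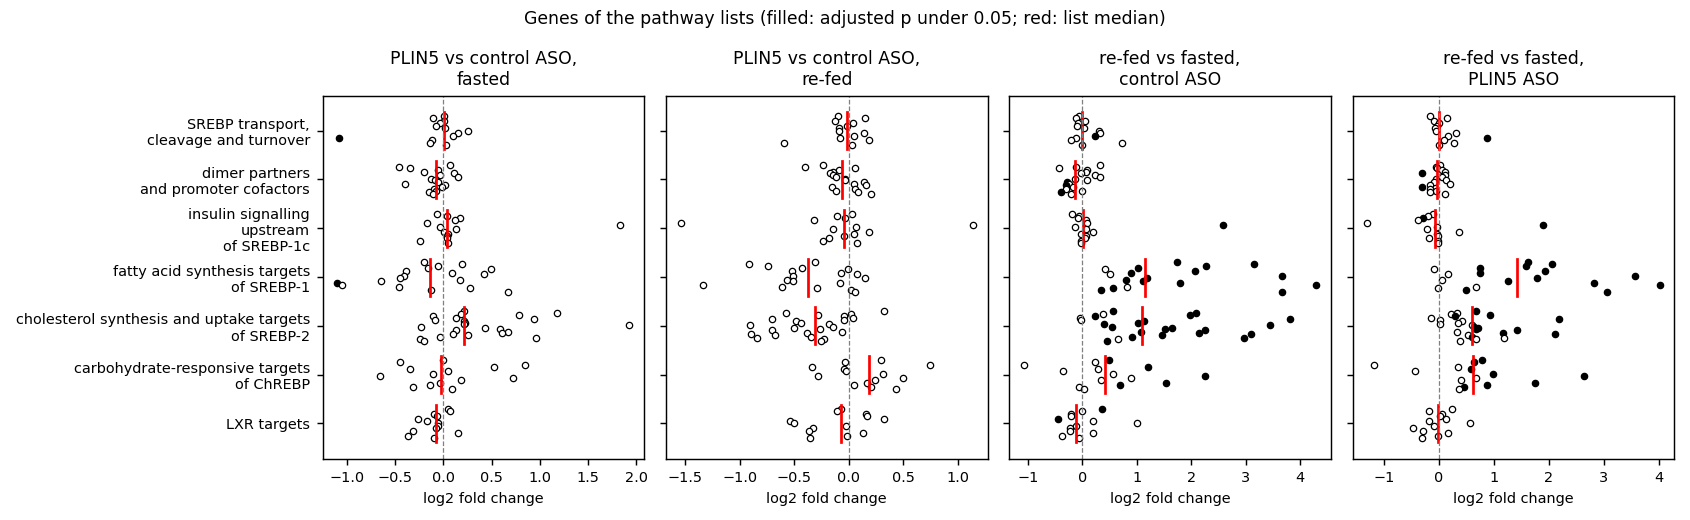
edgeR log2 fold change (horizontal axes, scales differ) of each gene of the 7 lists in 4 comparisons, filled where the adjusted p was under 0.05, with the list median in red. In the re-feeding panels 15 and 13 of 18 SREBP-1 targets and 20 and 11 of 24 SREBP-2 targets are filled, all to the right of 0, and in the left panel Mid1ip1 and Rnf145 are filled near -1.1.

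Outside the 8 genes, those whose log2 CPM ran most alike over the 19 libraries were sought among 8643 genes of at least 5 CPM. The nearest to Srebf1 were Mid1ip1 (r = 0.95), Pdhb (0.95), a pyruvate dehydrogenase subunit, and Pklr (0.94). Insig1 ran with Scfd1 (0.94) and Cyb5b (0.91). Mlx was also most like Mid1ip1 (0.91), then Bhlhe40 (0.90) and Gcc1 (0.90). With group means removed these values were lower, at 0.61 for Srebf1 with Mid1ip1 and 0.82 for Insig1 with Scfd1. Insig2 was nearest to Elovl3 (0.96), a fatty acid elongase, then Clpx (0.96), and these were 0.97 and 0.98 with group means removed. For Mlxipl they were Dock6 (0.93), Cmah (0.91) and Fam188a (0.90). For Srebf2 they were Ube2g2 (0.91), Ccnf (0.87) and Osbpl11 (0.86), and for Scap Sh3d19 (0.93), Enpp3 (0.87) and Prkd3 (0.87). The genes nearest to Nr1h3 were Naa10 (0.90), Mrpl10 (0.89) and Wdr83os (0.89), of which the last dropped to 0.53 without the 2 libraries farthest from the median. All these libraries share their groups and scaling, so the values describe these 19 libraries.

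Several of the 8 genes overlap others in the annotation, and the sources used here do not say whether reads were counted by strand. Srebf1 overlaps Rai1 and Mlx overlaps Psmc3ip, both coding genes on the opposite strand. Mlxipl overlaps the antisense gene Gm43500, and Srebf2 holds the microRNA gene Mir33. Reads from such overlaps could not be told apart.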

How the data were processed

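Mouse liver RNA was measured by RNA-seq in 19 libraries of 4 groups. The authors deposited 1 table of read counts per gene symbol and 1 table of FPKM values for 24347 genes, and per the submitters' processing notes FastQC, HISAT2 2.0.2, Cuffdiff 2.2.1, Subread and edgeR were used on builds mm10 and GRCm38. For the counting settings and the annotation, the labels and file headers say nothing further. Libraries were grouped by their labels, and 27 gene names had been turned into dates and were kept as written.

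The deposited counts were tested with edgeR 4.0.16 in R 4.3.3: TMM scaling, filterByExpr with a minimum count of 10, and 1 quasi-likelihood fit of all 19 libraries with contrasts for the 5 comparisons. Benjamini-Hochberg adjustment ran over 13293 genes, with 0.05 as the threshold, and intervals are 95%. Library totals were 24.9 to 66.9 in units of 1e+06 counts. FPKM of the authors served for levels between genes and, with limma 3.58.1 on log2(FPKM + 1) or log2(FPKM + 0.1) and a mean of at least 0.5, as an alternative. Other alternatives were DESeq2 1.42.0, RLE factors, other filters, only the groups compared, a replicate block and each library left out. Chosen after seeing the data were the sum of fasted control ASO 3 and 4, the omission of the 4 high-Arntl libraries and the removal of length trends. The fit was tested on simulated data.

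The 8 genes and the 7 pathway lists were chosen with earlier results of these data known. Named beside them are Plin5, clock genes, at most 4 genes per list and comparison with the smallest p, and the 3 most correlated genes per member among those of at least 5 CPM, without Gm and Rik names. Some genes that this rule would name are not reported here. Promoters were searched for motifs in RefSeq windows (GRCm38.p6), and positions are from GENCODE on GRCm38.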

Additional observations from a re-analysis of the deposited data

Results flagged for a closer look

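Among the 32 sets of 4 or 5 libraries checked (8 genes in 4 groups), 2 held a library far from the others of its group, and chance alone gives about 1 in 20. Scap was lowest in replicate 2 of re-fed control ASO, at 95.6 CPM, below the other 4 libraries of the group at 119 to 126 CPM. Nr1h3 was highest in replicate 2 of re-fed PLIN5 ASO, at 152 CPM, above the other 4 at 125 to 130 CPM.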

How the results depend on the processing

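Of 1232 values of the 8 genes under alternatives, 1155 kept direction and side of the threshold, 29 lost and 15 gained a call and 33 changed sign, and of 248 values behind a call 219 kept it and 0 changed sign. The interaction could not be fitted with only the 2 groups compared.

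Genes called between the ASOs in fasted liver went from 156 to 434 with DESeq2, 33 with unfiltered FPKM and 36 with fasted control ASO 3 and 4 summed. In re-fed liver they went from 183 to 607 with DESeq2, 4 with only the 2 groups, 93 with unfiltered FPKM, 45 without the 4 high-Arntl libraries and 51 without length trends. Re-feeding under control ASO went from 1759 to 1139 with the summed libraries and 1167 without the high-Arntl libraries. The interaction went from 3 genes to 96 with DESeq2 and 0 with no filter, limma on FPKM, the summed libraries or no length trends. Of the 8 genes, the ASOs in re-fed liver gave 2 calls with DESeq2 and 1 with limma on filtered FPKM. Re-feeding under PLIN5 ASO gave 2 with unfiltered FPKM and 2 without the high-Arntl libraries. The cause was not tested.

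Replicate numbers were not treated as pairs in the main fit, and whether they stand for pairs was not tested. Of 27 same-numbered pairs across groups 14 correlated above 0.1. The 27 ran from -0.336 to 0.513, with a median of 0.101 against -0.0381 for other numbers. With a replicate block, 253 genes were called between the ASOs in fasted and 290 in re-fed liver and 1 for the interaction. There Insig1 differed by 0.10 and Nr1h3 by -0.017 in fasted liver, Scap after re-feeding under PLIN5 ASO passed (adjusted p = 0.0183) and Insig1 did not (0.74, adjusted p = 0.0558).

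Between the ASOs in fasted liver, Nr1h3 was -5.4e-04 with no filter and -1.28e-05 with only the 2 groups, and Insig1 was 0.046 with log2(FPKM + 1), filtered or not, 0.050 with log2(FPKM + 0.1), 0.094 with the summed libraries and 0.022 without the high-Arntl libraries. Without those libraries Scap was -0.044 there, Srebf2 was 0.21 in re-fed liver, and Insig2 was -0.17 and 0.63 between the ASOs, -0.32 and 0.47 after re-feeding and 0.80 for the interaction. Without length trends Srebf2 was 0.02 between the ASOs in re-fed liver and Nr1h3 0.0098 after re-feeding under control ASO.

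With 1 library left out, all genes called ranged from 22 to 188, 45 to 341, 1112 to 2014, 741 to 1232 and 0 to 3 in the order ASO fasted, ASO re-fed, re-feeding under control ASO, under PLIN5 ASO and interaction. Of the 8 genes 0 to 0, 0 to 1, 3 to 4, 2 to 5 and 0 to 0 were called. Signs changed for Insig1 (-0.22 to 0.11) and Nr1h3 (-0.022 to 0.018) between the ASOs in fasted liver, and for Insig2 (-0.50 to 0.065), Srebf1 (-0.35 to 0.012) and Srebf2 (-0.13 to 0.038) in re-fed liver.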
